A study of Mus musculus with 5 samples.

Results

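The p53 negative regulators and feedback genes were examined in whole tumours. They were 7 genes chosen by name (Mdm2, Mdm4, Rchy1, Ppm1d, Ccng1, Trp53inp1 and Cdkn2a) out of 19505 named genes on the array. The set was fixed by gene symbol, with the highest-mean probe set standing for a gene. No cut on measured values was used, but earlier results of these data were known when the set was chosen. Each of the 7 genes had 1 probe set (called a probe here), so all 7 were measured and none was lost to a filter.

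The tumours grew under the skin of wild-type C57BL/6 mice aged 10 weeks after injection of B16.F10, an established murine melanoma line (luc+ and GFP+ in this study). Anti-PD-1, which blocks a checkpoint receptor on T cells, was injected into all 5 mice on days 1, 4 and 8. Oral vehicle (corn oil plus 5% DMSO) was given to 2 of them (replicates 3 and 4), and oral RG7112, which occupies the p53-binding pocket of MDM2, to the other 3 (replicates 1, 2 and 3). The oral agent was given every 2 days over 6 days, beginning 2 days after injection as the labels can be read, and tumours were taken on day 13, after dosing had ended. Each tumour came from its own mouse and was read on 1 Clariom S array. Every tumour in the comparison had seen anti-PD-1, and no group without it was analysed here. Per the labels, tumour cells were not separated from immune cells. In such bulk RNA fewer cells of a type and less RNA per cell cannot be told apart.

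p53 is held at low levels by MDM2, a ubiquitin ligase that marks it for degradation, and by MDM4, a relative that binds p53 and pairs with MDM2. p53 in turn switches on the Mdm2 gene, and its targets Ccng1 and Ppm1d also act to restrain it, so that a p53 response carries its own brakes. The ARF protein of the Cdkn2a locus works in the opposite direction by binding MDM2, and the locus is often lost in melanoma. In cells with functional p53, a rise of Mdm2 transcript is a commonly used sign of p53 activation by MDM2 inhibitors.

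Promoter sequences are shown for Mdm2, Ccng1 and Ppm1d, 3 genes linked to p53 by direct feedback that each held a match to the p53 half-site. Rchy1, to which both also apply, is not shown. The sequences are the 250 bases before the gene's start in RefSeq (GRCm38.p6), written 5′ to 3′ on the gene's strand. The match to the 10-base half-site consensus of the p53 response element is in capitals. This was the only motif searched, and its reverse complement is the same consensus, so both strands were covered. Mdm2 lies on the minus strand (chr10:117710759-117711008), Ccng1 on the minus strand (chr11:40755287-40755536) and Ppm1d on the plus strand (chr11:85311004-85311253).
Mdm2: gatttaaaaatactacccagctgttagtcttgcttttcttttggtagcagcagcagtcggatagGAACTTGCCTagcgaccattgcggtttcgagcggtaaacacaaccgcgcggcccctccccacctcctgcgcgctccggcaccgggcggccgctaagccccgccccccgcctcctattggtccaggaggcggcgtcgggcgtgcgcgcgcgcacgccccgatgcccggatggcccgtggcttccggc
Ccng1: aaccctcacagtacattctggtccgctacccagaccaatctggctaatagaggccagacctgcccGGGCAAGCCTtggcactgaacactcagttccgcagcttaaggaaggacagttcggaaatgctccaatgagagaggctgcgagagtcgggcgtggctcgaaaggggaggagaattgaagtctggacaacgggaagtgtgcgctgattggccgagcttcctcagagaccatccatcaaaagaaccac
Ppm1d: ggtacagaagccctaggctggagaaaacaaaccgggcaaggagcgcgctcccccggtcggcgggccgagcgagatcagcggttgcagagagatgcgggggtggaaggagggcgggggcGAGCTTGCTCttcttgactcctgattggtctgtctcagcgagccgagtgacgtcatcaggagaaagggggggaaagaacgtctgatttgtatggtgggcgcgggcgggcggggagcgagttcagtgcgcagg

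The match began 186 bases before the start of Mdm2, 185 bases before that of Ccng1 and 132 bases before that of Ppm1d. Of the 7 genes, 6 were matched in the promoter table, with 9 windows between them, and 4 of the 9 windows held a match, the other being 1 of the 2 windows of Rchy1. Over all 32851 windows of this length, 7.13% held one. Neither window of Mdm4 nor either window of Cdkn2a had these letters. The p53-responsive promoter of Mdm2 is known to lie inside its first intron, downstream of the window shown. A match is a description of the sequence and does not show binding.

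The question of the comparison was how adding RG7112 to anti-PD-1 changed these genes by the time the tumours were taken. None of the 7 passed the test. In limma, with Benjamini-Hochberg adjustment over all 22203 probes, their adjusted p-values ran from 0.738 for Mdm2 to 0.987 for Ccng1. Over all probes 1.45% were called at adjusted p under 0.05, 1.42% of probes as higher and 0.0315% as lower with RG7112, so a count of 0 among 7 genes lies near that background. At an unadjusted p under 0.05 the count was also 0 of 7, against 8.89% of all probes. The vehicle and RG7112 tumours overlapped in all 7 genes, whereas 24.8% of all probes had groups that did not overlap. Of the 7 differences 3 were above 0 and 4 below, with a median of -0.03 on the log2 scale, against a median of -0.03 over all probes.

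**Figure D1:**
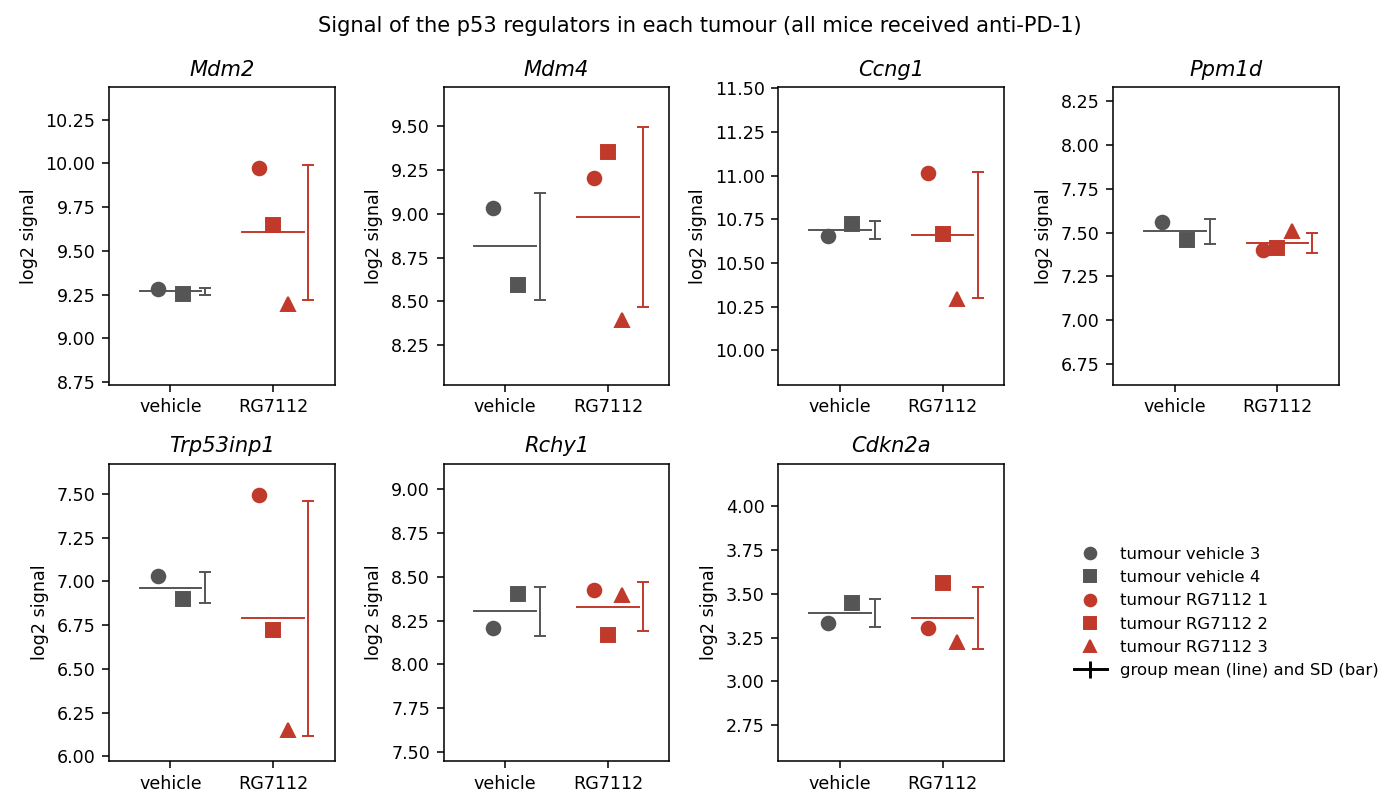
Log2 signal of each of the 7 genes (y axis, the same span of log2 units in every panel) in the 2 vehicle tumours (grey) and the 3 RG7112 tumours (red), with the group mean as a line and the SD as a bar. The groups overlap in every panel; Mdm2, Mdm4, Ccng1 and Trp53inp1 spread widely among the RG7112 tumours, and Ppm1d hardly varies.

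Mdm2 (probe TC1000002940.mm.2), the target of the drug, had log2 signals of 9.28 and 9.26 in vehicle replicates 3 and 4 and of 9.97, 9.65 and 9.20 in RG7112 replicates 1, 2 and 3. The vehicle tumours were nearly equal, while RG7112 replicates 1 and 2 lay above both of them and RG7112 replicate 3 lay below both. The means were 9.27 ± 0.02 (SD, n = 2) and 9.60 ± 0.39 (SD, n = 3). The difference was 0.34 ± 0.21 (SE) on the log2 scale, or 1.26-fold, and did not pass (limma adjusted p = 0.738; two-sided exact permutation p = 0.4, where 10 possible splits allow no p below 0.1). Its 95% interval ran from -0.13 to 0.81, that is from 0.912-fold to 1.75-fold, so the interval does not extend to a doubling of the transcript and includes no change. The difference stayed above 0 in all 13 alternatives, at 0.15 without RG7112 replicate 1 and 0.54 without RG7112 replicate 3. Only array weights, quantile or cyclic loess normalization and leaving out a tumour could move it. The other alternatives kept the same difference by design.

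Mdm4 (TC0100003087.mm.2), which binds the transactivation domain of p53 without degrading it on its own, had signals of 9.03 and 8.60 in the vehicle tumours and of 9.20, 9.35 and 8.40 in RG7112 replicates 1, 2 and 3. RG7112 replicates 1 and 2 were again above both vehicle tumours and replicate 3 again below both. The difference was 0.17 ± 0.26 (95% interval -0.41 to 0.75; limma adjusted p = 0.926). Without vehicle replicate 4 it was -0.05, and without RG7112 replicate 2 it was -0.01. Rchy1 (TC0500002743.mm.2), also known as Pirh2, is another ubiquitin ligase of p53 that p53 induces. It had signals of 8.21 and 8.40 with vehicle and of 8.42, 8.17 and 8.40 with RG7112, and the groups covered nearly the same range. Its difference was 0.03 ± 0.16 (95% interval -0.33 to 0.39; limma adjusted p = 0.985). The sign was the opposite without vehicle replicate 3 (-0.07), without RG7112 replicate 1 (-0.020) and without RG7112 replicate 3 (-0.0073).

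Of the feedback genes that do not encode ubiquitin ligases, Ppm1d (TC1100001291.mm.2) encodes the phosphatase WIP1, which removes activating phosphates from p53 and from the kinases upstream of it. Its signals were 7.56 and 7.46 with vehicle and 7.40, 7.41 and 7.51 with RG7112, the tightest values of the 7 genes. Its difference was -0.07 ± 0.15 (95% interval -0.40 to 0.27, or 0.756-fold to 1.20-fold; limma adjusted p = 0.951). It stayed below 0 in every alternative that could move it. Ccng1 (TC1100002550.mm.2) encodes cyclin G1, a p53 target that brings a phosphatase to MDM2. It had signals of 10.65 and 10.72 with vehicle and of 11.01, 10.67 and 10.29 with RG7112. RG7112 replicate 1 lay above both vehicle tumours, replicate 2 between them and replicate 3 below both. Its difference was -0.03 ± 0.21 (95% interval -0.48 to 0.42; limma adjusted p = 0.987), and it was 0.15 without RG7112 replicate 3 and 0.0046 without vehicle replicate 4.

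Trp53inp1 and Cdkn2a are part of the feedback around p53 but are not themselves inhibitors of it. Trp53inp1 (TC0400000084.mm.2), a stress-induced p53 target whose product promotes p53 activity and autophagy, had signals of 7.03 and 6.90 with vehicle and of 7.49, 6.72 and 6.15 with RG7112. RG7112 replicate 1 was above both vehicle tumours and the other two were below both, over a range of 1.34 log2 units. Its difference was -0.18 ± 0.30 (95% interval -0.84 to 0.49; limma adjusted p = 0.933) and turned to 0.14 without RG7112 replicate 3. Cdkn2a (TC0400003033.mm.2) gives rise to ARF, which blocks MDM2, and to the CDK4/6 inhibitor p16INK4a; the annotation ties transcripts of both to the 1 probe, so they were not told apart. Its signals were 3.33 and 3.45 with vehicle and 3.31, 3.56 and 3.22 with RG7112. All 5 values lay below the lower quartile of their array, which was between 4.02 and 4.13 over the 5 arrays, and no detection calls were used, so a level near the array's floor cannot be told apart from no transcript. The difference was -0.03 ± 0.17 (limma adjusted p = 0.985), and its sign was the opposite without vehicle replicate 4 (0.03), RG7112 replicate 1 (0.0016) or RG7112 replicate 3 (0.04).

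**Figure D2:**
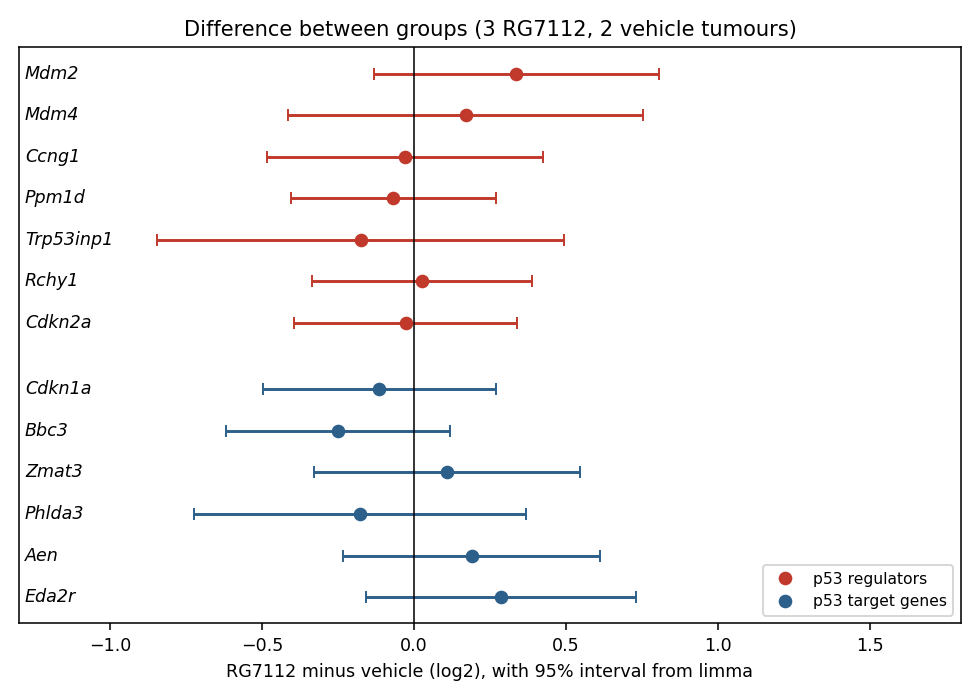
Difference between the mean of the 3 RG7112 tumours and the mean of the 2 vehicle tumours (x axis, log2) with its 95% interval from limma, for the 7 p53 regulators (red) and 6 p53 target genes fixed by name (blue). Every interval drawn includes 0, while those of Plk2, Abcb1a and Sesn2, targets named for their small p-values and not drawn, do not; that of Mdm2 runs from -0.13 to 0.81 and that of Trp53inp1, the widest of the 7 regulators, from -0.84 to 0.49.

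The 7 genes differed in how far the tumours of a group lay apart. The pooled within-group SD was 0.55 for Trp53inp1, 0.46 for Mdm4, 0.32 for Mdm2 and 0.30 for Ccng1, at or above those of 99.4%, 98.2%, 88.5% and 84.9% of all probes. It was 0.06 for Ppm1d, at or above that of 4.84% of probes, and 0.14 and 0.15 for Rchy1 and Cdkn2a. The median over all probes was 0.18. Among the RG7112 tumours, replicate 1 exceeded replicate 3 by 0.77 for Mdm2, 0.81 for Mdm4, 0.72 for Ccng1 and 1.34 for Trp53inp1. A gap of at least 0.7 in this direction was thus found in 4 of the 7 genes, against 2.63% of all probes and 1 of 38 other p53 target genes (Phlda3). This cut, just below the gap of Ccng1, was chosen after the values were seen and has no test. Without a cut, RG7112 replicate 1 was the highest and replicate 3 the lowest RG7112 tumour in 3 of the 7 genes. That order was found in 11 of the 38 targets and in 19.8% of all probes.

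The levels of marker genes over the same 3 tumours stand beside this spread. In RG7112 replicates 1, 2 and 3 the mean of 17 melanocyte lineage genes was 10.88, 10.86 and 10.88, and that of 14 macrophage and monocyte genes was 8.15, 7.78 and 7.91. The mean of 9 endothelial genes was 6.89, 6.96 and 6.88, and that of 8 fibroblast genes was 7.37, 6.88 and 7.41. For 9 T cell genes the mean was 5.26, 5.25 and 5.36, and for 7 NK cell genes it was 4.73, 4.56 and 4.59. The mean of 6 B cell genes was 3.89, 4.38 and 4.53. For 6 neutrophil genes it was 4.25, 4.30 and 4.37, and for 7 keratinocyte genes 4.18, 4.24 and 4.29. These last 3 lists were all lowest in replicate 1 and highest in replicate 3. Their signals were low, as the lower quartiles of the RG7112 arrays were 4.02, 4.10 and 4.07. A mean over several genes varies less than a single gene, so these spreads are not set against those of the members. RG7112 replicate 1 also had the widest value distribution of the 5 arrays (quartiles 4.02 and 7.85). What part these levels and the array's distribution have in the spread of the members was not tested.

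**Figure D3:**
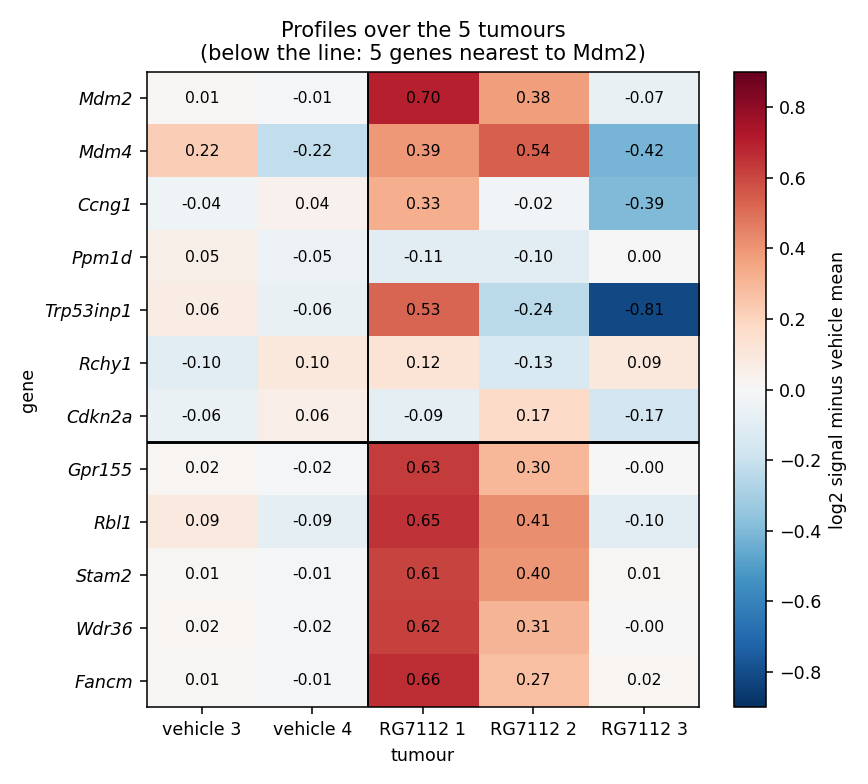
Log2 signal minus the gene's own vehicle mean (colour and printed value) in each tumour (columns) for the 7 p53 regulators (above the line) and the 5 genes whose profile was nearest to that of Mdm2 (below the line). For the 5 nearest genes, as for Mdm2, RG7112 replicate 1 is highest and RG7112 replicate 3 lies close to the vehicle mean, from -0.10 to 0.02 in those 5; Trp53inp1 is at -0.81 in RG7112 replicate 3.

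The genes most like Mdm2 were sought among 9781 named genes with a mean at or above the median of all probes, by the root-mean-square difference of their profiles over the 5 tumours after centring on the vehicle mean. The nearest 5 were Gpr155 (0.057), Rbl1 (0.057), Stam2 (0.057), Wdr36 (0.058) and Fancm (0.064), all in log2 units. Rbl1 encodes the retinoblastoma relative p107 and Fancm a DNA helicase of the Fanconi anaemia pathway. Stam2 acts in endosomal sorting and Wdr36 in ribosome biogenesis. Their likeness to Mdm2, in the order of the tumours and the size of the difference, follows from this selection. Rbl1 had signals of 8.48 and 8.30 with vehicle and of 9.04, 8.80 and 8.29 with RG7112. Its difference was 0.32, and those of the other four ran from 0.31 to 0.34. None of the other 6 regulators was among the 5, but Cdkn2a, whose mean lay below the median of all probes, was not a candidate.

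The wider pathway was described with 8 lists holding 150 measured genes, and 0 of these passed the test in either direction. An unadjusted p under 0.05 in limma was reached by 4 of 38 p53 target genes (other than those above), 1 of 13 kinases, 1 of 20 regulators of the Ink4a/Arf locus and 1 of 19 p53 family members and cofactors, and by 0 genes of the remaining 4 lists, beside 8.89% of all probes. The 38 target genes had a median difference of -0.02, with 15 above 0 and 23 below. In the same tumours 10 of 14 macrophage and monocyte markers were higher and 0 lower (limma), and their mean level ran from 6.45 to 6.85 in the vehicle tumours and from 7.78 to 8.15 with RG7112. For 17 melanocyte lineage genes, 0 were called, and the level ran from 10.66 to 10.77 and from 10.86 to 10.88. Of 9 T cell markers 1 was called higher (Cd8b1), and of 9 endothelial markers 1 (Kdr), with 0 lower. In the NK cell, B cell, neutrophil, fibroblast and keratinocyte lists 0 were called. RG7112 minus vehicle, the list means differed by 0.49 (T cells), 0.43 (endothelium), 0.39 (NK cells), 0.24 (fibroblasts), 0.12 (neutrophils), -0.12 (B cells) and -0.21 (keratinocytes). The part of these marker levels in the values of the p53 lists was not tested.

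Among the targets, Cdkn1a, which encodes the cell cycle inhibitor p21 and is the best known p53 target, had signals of 10.92 and 10.70 with vehicle and of 10.93, 10.55 and 10.62 with RG7112. RG7112 replicate 1 was level with the higher vehicle tumour and the other two lay below both. Its difference was -0.11 ± 0.17 (95% interval -0.50 to 0.27; limma adjusted p = 0.924), and it was -0.0027 without vehicle replicate 3 and -0.23 without RG7112 replicate 1. The pro-apoptotic Bbc3 (Puma) differed by -0.25 ± 0.17 and the RNA-binding protein gene Zmat3 by 0.11 ± 0.20, with -0.05 without vehicle replicate 4 and -0.02 without RG7112 replicate 1. Phlda3, an inhibitor of AKT, differed by -0.18 ± 0.25 and by 0.10 without RG7112 replicate 3. The nuclease gene Aen differed by 0.19 ± 0.19 and by -0.02 without vehicle replicate 3, and the receptor gene Eda2r by 0.29 ± 0.20. All 5 signals of Eda2r, from 3.23 to 3.94, lay below the lower quartile of their array, as those of Cdkn2a did. Bax was not analysed here.

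The targets with the smallest p-values differed in direction. Plk2, a stress-responsive kinase, had signals of 7.02 and 7.07 with vehicle and of 7.86, 7.61 and 7.58 with RG7112, with no overlap, and a difference of 0.64 ± 0.16 (95% interval 0.28 to 0.99) that did not pass (limma adjusted p = 0.114). Abcb1a, a drug efflux transporter, differed by 0.67 ± 0.17 (95% interval 0.29 to 1.04; limma adjusted p = 0.117). Sesn2, a sestrin that restrains mTORC1, had signals of 7.20 and 6.89 with vehicle and of 6.60, 6.34 and 6.73 with RG7112, and differed by -0.49 ± 0.18 (95% interval -0.89 to -0.10; limma adjusted p = 0.384). These intervals are not adjusted for the number of probes, and these 3 genes were named for their small p-values. The groups did not overlap in 8 of the 38 targets, 2 higher and 6 lower with RG7112, beside the 24.8% of all probes.

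**Figure D4:**
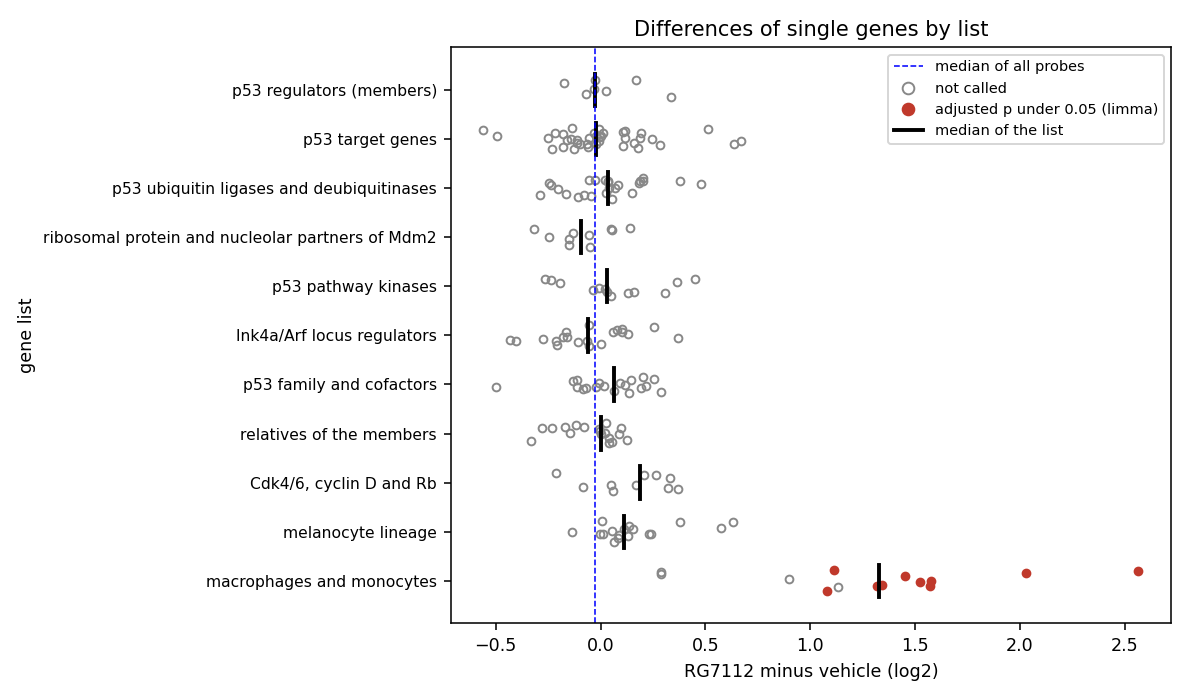
Difference between RG7112 and vehicle tumours (x axis, log2) for each measured gene of 11 lists (rows); filled red points passed limma at adjusted p under 0.05, open points did not, black bars are list medians and the dashed line is the median of all probes, -0.03. No gene of the p53 regulators or the 8 pathway lists passed, while 10 of 14 macrophage and monocyte markers did.

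Other enzymes that place or remove ubiquitin on p53 had a median difference of 0.03 over 25 genes. The smallest p-values belonged to the large ligase gene Huwe1 (0.48 ± 0.22; limma adjusted p = 0.592), to Rffl (-0.29 ± 0.16), a ligase gene, and to the deubiquitinase gene Otud5 (0.38 ± 0.22). The difference of Otud5 was 0.14 without vehicle replicate 3 and 0.62 without vehicle replicate 4. Huwe1 had signals of 7.57 and 7.33 with vehicle and of 8.14, 8.18 and 7.45 with RG7112, so that RG7112 replicate 3 lay between the vehicle tumours, and in Mdm2 and Mdm4 it lay below both. The list of ribosomal protein and nucleolar genes, among them Rpl5 and Rpl11, whose products bind MDM2 under ribosomal stress, had a median difference of -0.09 over 10 genes. Sart1, better known as a splicing factor gene, was at -0.32 ± 0.23 (-0.52 without RG7112 replicate 3 and -0.084 without RG7112 replicate 1). Nop53, whose product holds RPL11 in the nucleolus, was at -0.25 ± 0.19 (-0.39 without RG7112 replicate 3 and -0.12 without vehicle replicate 4), and nucleolin, Ncl, at -0.15 ± 0.15. Of the 13 kinases of the pathway, the checkpoint kinase gene Chek2 differed by 0.45 ± 0.17 (limma adjusted p = 0.425), with 7.04 and 7.12 in the vehicle tumours and 7.77, 7.38 and 7.43 with RG7112. The p53 kinase gene Hipk2 differed by 0.36 ± 0.17 and the stress kinase gene Mapk14 by 0.31 ± 0.16.

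Among 20 regulators of the Ink4a/Arf locus the median difference was -0.06. The Polycomb gene Cbx7 differed by -0.43 ± 0.19 (limma adjusted p = 0.524) and the T-box repressor gene Tbx3 by -0.40 ± 0.20. E2f3, a transcription factor of S phase entry, differed by 0.37 ± 0.18 at the brighter of its 2 probes, and the other is not shown. Without vehicle replicate 3, Tbx3 was at -0.58 and E2f3 at 0.12, and without vehicle replicate 4 they were at -0.22 and 0.62. The 19 measured p53 family members and cofactors did not include Trp53 itself, which was not analysed here. Among them Ppp1r13l, which encodes the p53 inhibitor iASPP, had signals of 5.20 and 4.99 with vehicle and of 4.53, 4.58 and 4.67 with RG7112. These did not overlap, and the difference of -0.50 ± 0.16 did not pass (limma adjusted p = 0.265). The probes of Ppp1r13l and Tbx3 were dim and fell below the filter at the 40th percentile of the mean. The acetyltransferase genes Ep300 and Crebbp differed by 0.29 ± 0.17 and 0.25 ± 0.18.

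Relatives of the 7 genes also stayed short of the threshold. Over 18 of them, which included Ccng2, other phosphatases of the Ppm1 family and other CDK inhibitor genes, the median difference was 0.0018. Trp53inp2, the paralogue of Trp53inp1, had signals of 8.77 and 9.05 with vehicle and of 8.85, 8.62 and 8.26 with RG7112, and differed by -0.33 ± 0.20 (limma adjusted p = 0.707). As in Trp53inp1, RG7112 replicate 3 was the lowest of the 5 tumours and replicate 1 the highest of the RG7112 tumours. The cyclin gene Ccni differed by -0.23 ± 0.15 and the CDK inhibitor gene Cdkn1c by -0.28 ± 0.20. For 10 genes of CDK4/6, D cyclins and the Rb family, downstream of p16INK4a, the median difference was 0.19, with Rbl2 at 0.26 ± 0.16 and E2f2 at 0.33 ± 0.21, and 0 were called.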

How the data were processed

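Per the labels, total RNA of 5 tumours (2 vehicle, 3 RG7112, all with anti-PD-1) was hybridised to Clariom S arrays. The deposited values are log2 signals, made by the authors with oligo and RMA per the submitters' processing notes; for its versions, options and genome build, nothing is stated in the labels. The 5 arrays had medians from 5.76 to 5.81. Of 22203 probes, 19572 had 1 gene symbol, 0 several and 2631 none, and all 19572 Entrez identifiers were found in RefSeq (GRCm38.p6), with 0 symbols changed. No scan dates were used, so batches were not examined.

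For RG7112 minus vehicle, limma 3.58.1 under R 4.3.3 was used (lmFit, eBayes, Benjamini-Hochberg over all probes, 3 residual and 7.92 prior degrees of freedom). Replicates are separate mice, and the number of arrays limits the precision. On simulated data of 22203 probes for this comparison, the share of changed probes recovered was 2.09% at a log2 change of 0.5, 63.2% at 1 and 99.6% at 2. Each of the 10 simulated sets held 200 changed probes of these sizes mixed, with the same variance in both groups. The shares hold for that setting and can differ in the measured data. Members, lists and tests were chosen with earlier results of these data known. Named genes were all members, the targets Cdkn1a, Bax, Bbc3, Zmat3, Phlda3, Aen and Eda2r, up to 3 genes with the smallest p per list, and the 5 genes nearest to Mdm2 in profile. Lists were described by counts and medians, with no set test. Alternatives were an intensity trend, a robust fit, array weights, quantile and cyclic loess normalization, a filter at the 40th percentile of the mean, 1 probe per gene, adjusted p under 0.10 and leaving out each tumour.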

Additional observations from a re-analysis of the deposited data

How the results depend on the processing

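None of the 7 regulators was called under any alternative, and their adjusted p-values in limma stayed at or above 0.320. Cdkn2a has no value without dim probes, nor do Eda2r, Tbx3 and Ppp1r13l of the lists. Averaging several probes could not be run because each of the 7 regulators has 1. Signs changed for 5 of the 7. Rchy1 and Cdkn2a were at -0.0018 and 0.0071 with array weights, -0.033 and 0.0086 with quantile normalization, and -0.00064 and 0.019 with cyclic loess. Leaving out 1 tumour gave ranges of -0.048 to 0.46 for Mdm4, -0.21 to 0.15 for Ccng1, -0.53 to 0.14 for Trp53inp1, -0.071 to 0.12 for Rchy1 and -0.13 to 0.043 for Cdkn2a. The ranges were -0.049 to 0.27 for Zmat3, -0.38 to 0.10 for Phlda3 and -0.023 to 0.40 for Aen. Mdm2 and Ppm1d kept their sign throughout, though only array weights, the 2 normalizations and leaving out a tumour could change a sign.

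List medians ran from -0.093 to 0.017 (p53 targets), -0.036 to 0.18 (kinases), -0.14 to -0.021 (Ink4a/Arf regulators) and -0.052 to 0.0060 (relatives) without 1 tumour. The relatives' median was -0.027 with array weights and -0.038 with quantile normalization, which put the Ink4a/Arf regulators at -0.11. Of all probes, 315 were higher and 7 lower. Without 1 tumour, 65 to 268 were higher and 0 to 5 lower, both fewest without vehicle replicate 4 (1566 with an unadjusted p under 0.05 in limma). Lower probes numbered 16 with array weights, 4 with cyclic loess, 2 without dim probes and 29 at adjusted p under 0.10. Where 1 vehicle tumour is left, it is assumed to vary like the RG7112 tumours.

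No paired analysis was made, because the tumours came from separate mice and the labels name no pairs. With 5 arrays, log2 differences of about 0.5 were seldom recovered in simulation, and probes near the array floor, such as that of Cdkn2a, carry little information.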

Other observations

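The neighbours of Cdkn2a on chromosome 4 were looked at after the low signal of its probe was seen. By their order in GRCm38.p6 the nearest protein-coding genes are Ifne and Mtap on one side and Cdkn2b and Dmrta1 on the other. Mtap, an enzyme gene of methionine salvage, had log2 signals of 10.68 and 10.74 with vehicle and of 10.98, 10.83 and 10.90 with RG7112, above the upper quartile of every array (7.72 to 7.85). Cdkn2b, which encodes the CDK inhibitor p15INK4b, had 4.64 and 4.73 with vehicle and 4.86, 4.33 and 4.86 with RG7112, below the array medians. Ifne (4.22 to 4.71) and Dmrta1 (3.88 to 4.34) were dim as well. How bright a probe is depends on its sequence as well as on its transcript, so these levels are not set against each other, and the state of the locus was not tested.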
